A study of Mus musculus with 2 samples.

Results

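A set of 252 lung capillary endothelial cells carrying RNA of Neurl3, Sox11 or Icam5 was described in 2 single-cell libraries from injured mouse lung, 87 cells in the wild-type (WT) library and 165 in the p47phox-KI (KI) library, out of 15578 barcodes kept. They were chosen by unique molecular identifiers (UMIs, counts of captured RNA molecules). A kept barcode had at least 200 genes and at most 10% mitochondrial UMIs. A capillary cell had at least 3 UMIs of Cldn5, Cdh5 and Pecam1 together, at most 1 of Col1a2 and Col3a1, none of Epcam or Ptprc, at least 3 of Plvap and Gpihbp1 and more of these than of Car4, Ednrb and Fibin, and at most 1 each of Gja5 plus Bmx, of Vwf and of Inhbb plus Adamts9. The chosen cells had in addition a sum of at least 2 UMIs over Neurl3, Sox11 and Icam5, and are called Neurl3/Sox11 cells here. Capillary cells that passed the same gates with 0 UMIs of these 3 genes, 537 in WT and 549 in KI, were the comparison and are called resting for short; they too come from injured lung.

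The study profiled dissociated lung labelled with acute lung injury from C57BL/6 mice, 1 library of wild-type genotype and 1 of p47phox-KI genotype. Lungs were perfused, minced and digested with collagenase, red cells were lysed, and cells stained with a viability dye and anti-CD45.2 were sorted and run on the 10x Chromium 3′ version 3 kit. The gate of the sort, the agent of the injury and its timing, the sex, age and number of the mice and the way the p47phox locus was modified are not given in the sources used here. With 1 library per genotype there is no replicate, so no test was possible, and every interval below is a 95% interval that covers counting error only.

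General capillary cells line the alveolar microvessels and carry Gpihbp1, the anchor of lipoprotein lipase, and Plvap, a protein of endothelial diaphragms. When endothelium is exposed to cytokines or bacterial products, NF-kB, interferon and STAT3 signalling induce leukocyte adhesion molecules such as ICAM-1, chemokines, and feedback inhibitors such as SOCS3 and A20 (Tnfaip3). Immediate-early and heat-shock genes belong to another fast response, which tissue digestion can also switch on. Neurl3 encodes a neuralized-type E3 ubiquitin ligase, Sox11 a SoxC transcription factor, Icam5 (telencephalin) an adhesion molecule best known from neurons, and Ier3 an immediate-early protein. p47phox, encoded by Ncf1, is the organizer subunit of the NADPH oxidase.

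Neurl3 lies at chr1:36264597-36274679 on the minus strand, Sox11 at chr12:27334264-27342574 on the minus strand and Icam5 at chr9:21032073-21039036 on the plus strand (GENCODE M21, GRCm38). Icam5 starts 3255 bases past the end of Icam1, on the same strand, with Icam4 between them. Whether the counting used strand or assigned reads past a gene's end is not given in the sources used here. Promoter sequence was searched on both strands for 3 motifs, in the windows of 300 bases around 32851 RefSeq start sites (GRCm38.p6). These were a kappaB motif, GGGA, any 2 bases, then TTCC, held by 1.47% of all windows, an AP-1 motif, TGANTCA, held by 7.81%, and a STAT motif, TTCNNNGAA, held by 8.3%. Of the 15 named genes highest in Neurl3/Sox11 cells, 12 had a window. None of the 12 held the kappaB motif, 1 (Rsad2) held the AP-1 motif and 2 (Zfp36 and Irf1) held the STAT motif. Neurl3 itself held the kappaB motif from base 110 to base 101 before its start, in the reverse orientation. The other defining genes, Sox11 and Icam5, held none of the 3 motifs in the 250 bases before their starts. The sequences below are shown because they belong to a gene that defined the cells and to an interferon regulatory factor and an RNA-binding repressor that were higher in them. They were picked after their matches were seen, read 5′ to 3′ along the gene, and the capitals mark the motif match: the 250 bases before the Irf1 start (chr11:53769764-53770013, plus strand), and short stretches around the matches of Neurl3 (chr1:36273516-36273545, minus strand) and Zfp36 (chr7:28379229-28379255, minus strand), whose longer windows overlap annotated untranslated exons.
Neurl3: gaggtcatggGGAAAGTCCCggatatcgtc
Zfp36: acagcctgacTTCTGCGAAccgacagt
Irf1: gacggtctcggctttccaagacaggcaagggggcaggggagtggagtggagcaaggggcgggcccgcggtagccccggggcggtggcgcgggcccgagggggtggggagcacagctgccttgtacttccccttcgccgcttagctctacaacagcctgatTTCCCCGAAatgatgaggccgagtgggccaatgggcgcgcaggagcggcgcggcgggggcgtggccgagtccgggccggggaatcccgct

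The kept barcodes had a median of 3423 UMIs in WT (8417 barcodes) and 3927 in KI (7161 barcodes). Neurl3/Sox11 cells were deeper than resting cells, with medians of 4352 UMIs in WT and 4873 UMIs in KI against 3001 and 3353, and 2079 and 2280 genes against 1661 and 1818. Their summed depth was 407980 UMIs in WT and 889024 UMIs in KI, against 1810742 and 2035147 in resting cells. No doublet caller was run. None of them had over 20000 UMIs, the highest having 13124 in WT and 16945 in KI. Among all deposited barcodes the libraries shared 30 sequences. None of these was a Neurl3/Sox11 cell in both, and 1 Neurl3/Sox11 cell in KI had a sequence that is also in the WT library. Ncf1 had 0 UMIs in these cells in either library, and the floor of 3 counts used for a count of 0 is 7.35 CPM (counts scaled to a common total per class) in WT and 3.37 CPM in KI. Exact upper limits were 9.04 and 4.15 CPM. Resting cells had 0 Ncf1 UMIs in WT and 1 UMIs in KI, so the genotype labels could not be checked here.

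The cells were capillary by genes that no gate used. The 8 general capillary markers outside the gates (among them Kit, a receptor tyrosine kinase, and Cd93, a junctional receptor) summed to 10233 CPM in WT and 11309 CPM in KI, against 12112 and 12895 in resting cells. Cd93 stood at 2431 CPM in WT and 2425 CPM in KI, and Hpgd, which degrades prostaglandins, at 2762 and 3457. Markers of other lung cells were compared with those in resting cells. The leukocyte list summed to 68.6 CPM in WT and 77.6 CPM in KI, with Laptm5, Tyrobp, S100a8 and Cd3d at 0 in both, and resting cells gave 71.8 and 93.9. The mural list summed to 83.3 CPM in WT and 86.6 CPM in KI against 147 and 91.9, the fibroblast list to 88.2 and 143 against 97.8 and 108, and the alveolar type 2 list to 377 and 471, against 482 and 752. Dcn, a fibroblast proteoglycan, made up most of the KI fibroblast sum (106 CPM against 18.2). The alveolar type 1 list was higher in WT and lower in KI, at 608 and 318 CPM against 386 and 453. In WT Ager stood at 137 CPM against 52.5 and Aqp5 at 34.3 against 5.52. The part of these other cells in the results was not tested. Of the proposed markers that no gate used, Rnd1, Socs3 and Ier3 were all higher than in resting cells of both libraries, although Rnd1 was found in few cells. They were also above resting cells in the activated capillary cells described below. Single genes of inflammation were higher in some of these cells and not in others, as described below. The name here therefore keeps to the genes of the rule.

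Sox11, rather than Neurl3, brought most cells into the set. Sox11 had a UMI in 74 of 87 cells in WT (85.1%, exact Clopper-Pearson interval 75.8 to 91.8%) and in 135 of 165 in KI (81.8%, 75.1 to 87.4%). Neurl3 had one in 45 cells in WT (51.7%, 40.8 to 62.6%) and 65 in KI (39.4%, 31.9 to 47.3%). Icam5 had one in 4 cells in WT (4.60%) and 17 in KI (10.3%), with 9 and 24 UMIs in all, and 55.6% of the WT UMIs came from 1 cell. Cells with both Neurl3 and Sox11 numbered 32 in WT and 36 in KI, cells with Neurl3 and no Sox11 13 and 29, and cells with Sox11 and no Neurl3 42 and 99. The summed levels of the defining genes, which the rule itself constrains, were as follows: Neurl3 stood at 294 CPM in WT and 304 CPM in KI, Sox11 at 395 and 409, and Icam5 at 22.1 and 27.0. Just inside the threshold, at a sum of 2, were 43 cells in WT and 75 in KI. Just outside, at a sum of 1, were 115 and 165 cells. A sum of 5 or more was reached by 15 cells in WT and 32 in KI.

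**Figure D1:**
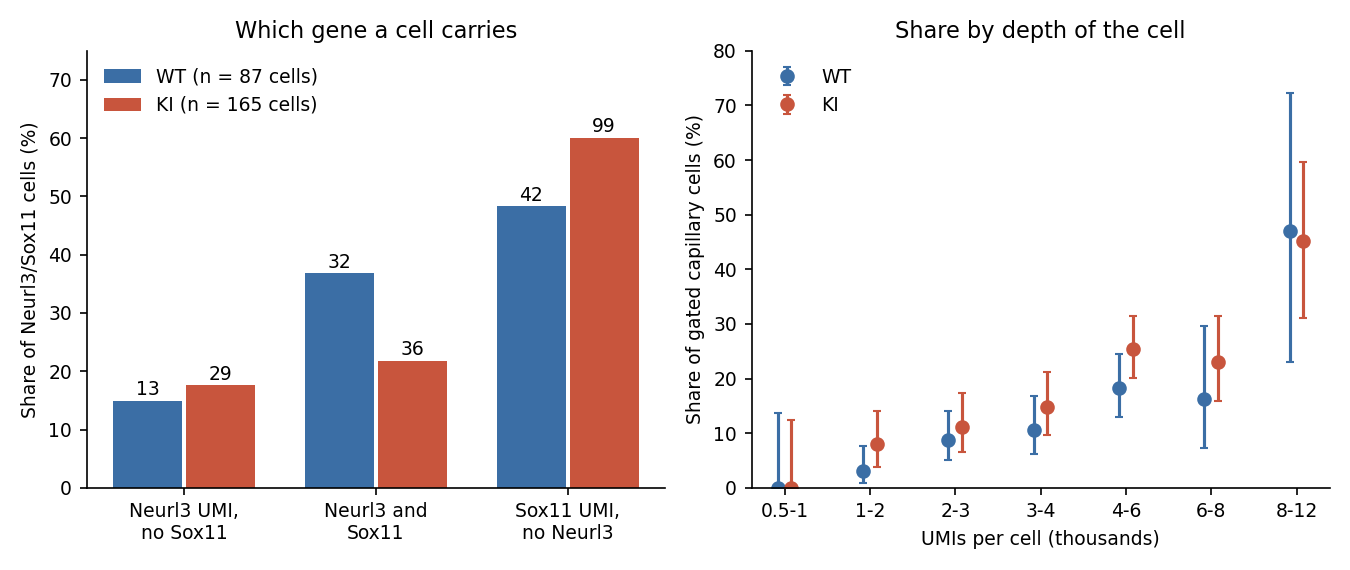
Left, number of Neurl3/Sox11 cells by the defining gene they carry, as percent of the cells of each library (WT 87 cells, KI 165 cells). Right, percent of capillary cells that are Neurl3/Sox11 cells against the cell's total UMIs, with exact binomial intervals; the share climbs with depth in both libraries and the KI points lie above the WT points from 1000 to 8000 UMIs.

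Neither gene belonged to capillary cells alone. Among all capillary cells, Neurl3 had a UMI in 12.04% in WT and 13.4% in KI. Fibroblast barcodes of similar depth (medians 3349 and 3587 UMIs) had one in 0.571% and 0.546%. Barcodes with Ptprc, the pan-leukocyte CD45 gene, carried Neurl3 more often, in 38 of 87 in WT and 22 of 43 in KI. Sox11 had a UMI in 19.5% of capillary cells in WT and 27.9% in KI, against 4.14% and 3.96% of fibroblast barcodes. Icam5 had one in 0.677% and 2.16% of capillary cells against 0.714% and 0.409% of fibroblast barcodes, so its WT share was near that of fibroblasts. Epithelial barcodes, which were deeper (medians 9359 and 11915 UMIs), carried Sox11 in 0.293% and 0.357% and Icam5 in 4.69% and 8.21%. The barcode classes thus differed in these genes, and the background from free RNA was not measured. Within capillary cells, Sox11 was found in 35.96% of cells with Neurl3 (26.1 to 46.8%) and 17.2% of cells without (14.4 to 20.4%) in WT. In KI the shares were 30.5% (22.4 to 39.7%) and 27.5% (24.3 to 30.8%), intervals that overlap. With every cell thinned to 2000 UMIs they were 20.3% (12.04 to 30.8%) and 12.7% (10.6 to 14.9%) in WT, intervals that overlap, and 21.7% (13.8 to 31.6%) and 16.4% (14.2 to 18.9%) in KI.

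Neurl3/Sox11 cells made up 11.8% of capillary cells in WT (87 of 739, 9.54 to 14.3%) and 18.8% in KI (165 of 879, 16.2 to 21.5%). The log2 ratio of KI over WT was 0.67 (0.29 to 1.06). The last gates before the defining genes, on Vwf and on Inhbb plus Adamts9, removed unlike shares of the libraries. They took the cells from 2133 to 739 in WT and from 1751 to 879 in KI. Endothelial barcodes with a sum of at least 2, before the other gates, numbered 490 in WT and 638 in KI. The part of the gates in the ratio was not tested. Capillary cells were deeper in KI, with a median of 3812 UMIs against 3253, and a deeper cell reaches 2 UMIs more readily. At 2000 UMIs per cell the share was 5.06% in WT (52 of 1027) and 8.16% in KI (88 of 1078), with 2191 and 1680 shallower kept barcodes left out. Within bins of depth, KI was higher in each of the 5 bins between 1000 and 8000 UMIs, for example 10.7% in WT and 14.7% in KI at 3000 to 4000 UMIs and 18.2% and 25.4% at 4000 to 6000. At 8000 to 12000 UMIs the shares were 47.1% and 45.1%. Among cells with a Neurl3 UMI the ratio was smaller, 0.28 on the log2 scale (6.09% in WT and 7.39% in KI). Whether another pair of libraries would differ in the same way was not tested.

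Against resting cells, Neurl3/Sox11 cells had more RNA of a number of immediate-early and heat-shock genes and of single genes of inflammation, among them Icam1, Irf1, Socs3 and Tnfaip3. UMIs of each class were summed, expressed as CPM and compared as log2 ratios with 0.5 counts added to each sum. Of 6758 genes with a mean of at least 20 CPM over both classes and libraries, 32 were at least 2-fold higher in both libraries (0.474%) and 3 at least 2-fold lower (0.0444%). A gene below 20 CPM in resting cells of both libraries entered only through the Neurl3/Sox11 cells, which favours a higher ratio. At a log2 ratio of 0.5 in both libraries, 121 genes were higher (1.79%) and 68 lower (1.01%). The median ratio over all genes was -0.03 in WT and -0.04 in KI. Since the cells were picked by their own RNA, these ratios describe them and test nothing. Of the 32 genes, 30 were also at least 2-fold higher when resting cells were weighted to the depth of the Neurl3/Sox11 cells, and 26 when the cell richest in each gene was left out.

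Immediate-early genes made up the largest group, with 10 of 23 measured genes at least 2-fold higher in both libraries and medians of 0.54 in WT and 1.23 in KI. Atf3, a stress-induced transcription factor, stood at 547 CPM in WT and 636 CPM in KI against 114 and 69.8 in resting cells. Its log2 ratio was 2.26 in WT (1.98 to 2.54) and 3.18 in KI (2.92 to 3.46). Ier3, one of the proposed markers, stood at 2020 CPM in WT and 2196 CPM in KI against 542 and 393, ratios of 1.90 (1.76 to 2.03) and 2.48 (2.36 to 2.60). Both genes ranked among the highest ratios, and the intervals leave out the spread between cells. At a sum of 2 UMIs of the defining genes, Atf3 stood at 38.7 CPM in WT and 454 CPM in KI. Ier3 stood at 619 CPM in WT and 2205 CPM in KI in the same cells (43 in WT, 75 in KI). The WT sums of both genes thus came mainly from cells with more of the defining RNA. Egr1, an early growth factor response gene, was at 576 CPM in WT and 936 CPM in KI against 172 and 211. Junb, an AP-1 subunit, was at 1368 and 1783 against 420 and 388. Zfp36, which destabilises cytokine messages, was at 637 and 784 against 214 and 232. Phlda1 (ratios 1.82 and 2.49) and Gadd45b (1.82 and 1.58), a stress-response gene, had ratios of the same order.

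Heat-shock genes were the second group, with 4 of 17 measured genes at least 2-fold higher in both libraries. Hspa1a, an inducible HSP70, stood at 2910 CPM in WT and 2678 CPM in KI against 681 and 518, ratios of 2.10 (1.98 to 2.21) and 2.37 (2.27 to 2.48). Its near-identical copy Hspa1b stood at 1052 and 1447 against 297 and 358, and reads shared by the pair may have been split or dropped in the counting. Hsph1, a nucleotide exchange factor for HSP70, had ratios of 2.01 and 2.62, and Hspb1, a small heat-shock protein, 1.73 and 1.62. Hsp90aa1, the inducible HSP90, was higher by 0.85 in WT and 1.34 in KI.

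Inflammatory genes were fewer. In the list of NF-kB subunits, inhibitors and feedback genes, 1 of 18 was at least 2-fold higher in both libraries. This was Tnfaip3, with 26 UMIs in 18 cells in WT (63.7 CPM against 28.7) and 74 UMIs in 29 cells in KI (83.2 CPM against 17.2). Nfkbia, the IkB-alpha inhibitor, was found in 82 of 87 cells in WT and 154 of 165 in KI, at 1743 CPM in WT and 1539 CPM in KI against 1414 and 1219. Its ratios of 0.30 and 0.34 were far below 2-fold. Among 11 leukocyte adhesion genes, 1 passed: Icam1, the ligand of leukocyte integrins, stood at 1105 CPM in WT (62 of 87 cells) and 820 in KI (115 of 165 cells) against 415 and 324. Its ratios were 1.41 (1.24 to 1.58) and 1.34 (1.18 to 1.49). Vcam1 had few UMIs, 15 in WT and 30 in KI, with ratios of 0.84 and 2.08, and in WT 66.7% of them came from 1 cell.

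Among 6 chemokines and cytokines, 1 passed. Cxcl10, which attracts T cells, had 93 UMIs in 5 cells in WT and 58 in 10 cells in KI, and a single cell held 61.3% and 50% of them. It was thus a trait of a few cells rather than of the set. In resting cells Cxcl10 stood at 6.07 CPM in WT and 3.44 CPM in KI, so it was measured only because of the Neurl3/Sox11 cells. Of 19 genes of IL-6 family reception and STAT3 feedback, 1 passed: Socs3 stood at 569 CPM in WT and 587 CPM in KI against 253 and 167, ratios of 1.17 (0.93 to 1.40) and 1.81 (1.61 to 2.01). Irf1, an interferon regulatory factor, was the only 1 of 26 genes of MHC class I presentation and interferon gamma response to pass, at 292 and 346 CPM against 103 and 124. Rnd1 had 21 UMIs in WT and 48 UMIs in KI (51.5 and 54.0 CPM against 12.1 and 10.8), and was detected in 11.5% and 10.3% of the cells. Like Cxcl10, it was measured only because of the Neurl3/Sox11 cells. Rsad2, an antiviral enzyme, had ratios of 2.31 and 2.03. In KI 81.0% of its UMIs came from 1 cell, and the KI ratio without that cell was -0.15.

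Of 27 SoxC, SoxF and other endothelial transcription factors, 2 passed: Irf1 again, and Bhlhe40, a repressor of the clock family (1.14 and 1.05). Sox4, another SoxC factor, stood at 113 CPM in WT and 170 CPM in KI against 60.2 and 73.2, ratios of 0.91 (0.38 to 1.42) and 1.21 (0.88 to 1.55). Sox17, a SoxF factor of arteries and capillaries, was at 147 and 163 against 133 and 134. Sbno2, a corepressor in the IL-10 and STAT3 response, was at 346 and 322 against 153 and 95.8, and Arid5a, which stabilises Il6 messages, at 213 and 181 against 83.9 and 40.3. Marcksl1, a regulator of the actin cytoskeleton, had ratios of 1.60 and 1.53.

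**Figure D2:**
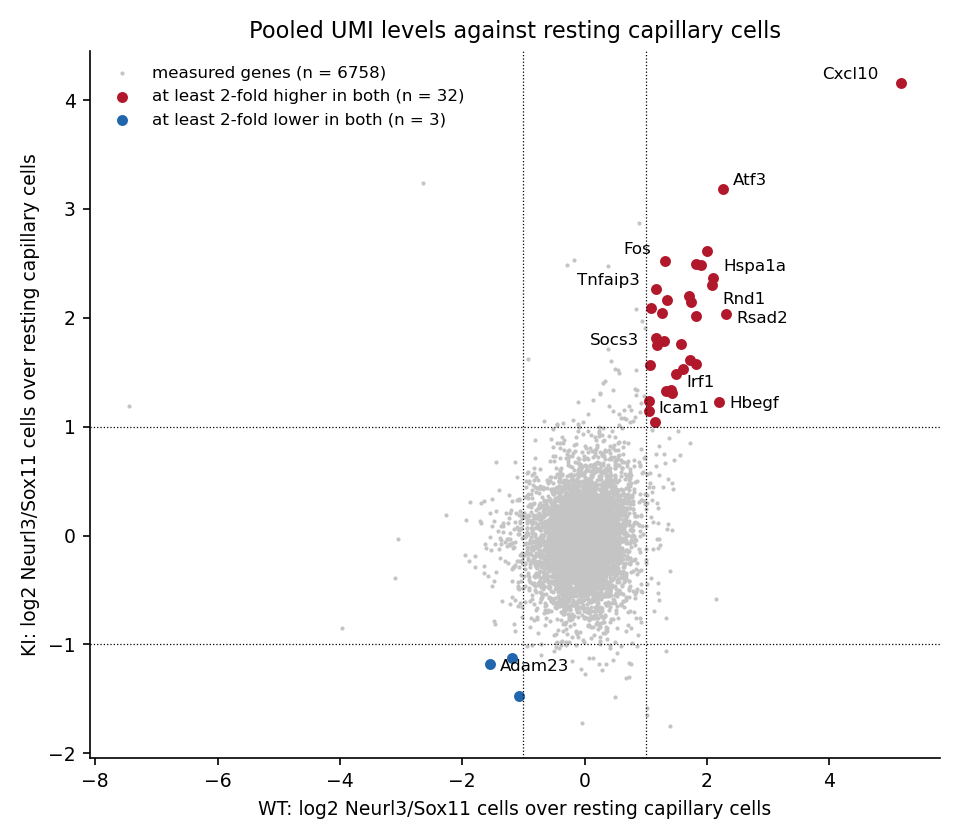
Each point is 1 of the 6758 measured genes; x, log2 ratio of Neurl3/Sox11 cells over resting capillary cells in WT; y, the same in KI. The 32 genes at least 2-fold higher in both libraries are red and the 3 at least 2-fold lower are blue; most genes lie near 0 on both axes.

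Genes of the capillary at rest were slightly lower at the median. The medians of 33 such genes were -0.27 in WT and -0.14 in KI, against -0.03 and -0.04 over all genes. None of the 33 passed a 2-fold difference in both libraries. Over all genes 0.474% were higher and 0.0444% lower by that measure, so this count says little. Plvap stood at 2248 CPM in WT and 2100 CPM in KI against 2550 and 2467, Cd36, a fatty acid transporter, at 1228 and 1070 against 1492 and 1318, and Cdh5, the VE-cadherin gene, at 1912 and 1724 against 1917 and 1952. The first and the last of these are gate genes. The 3 genes below the 2-fold line, Tram2, Adam23 and Bag4, rested on few UMIs (4, 5 and 6 in WT, 14, 15 and 9 in KI). Among the named genes that were lower in both libraries, the better counted were Sparcl1, a matricellular glycoprotein, at 159 CPM in WT and 130.5 CPM in KI against 252 and 210 (ratios -0.65 and -0.68), and Cd300lg, an endothelial mucin-like receptor, at 68.6 and 97.9 against 123 and 152. Lama5, a basement membrane laminin chain, had ratios of -0.56 and -0.60. Jam2, a junctional adhesion molecule, was at 53.9 and 51.7 against 88.9 and 76.7. Erap1, an antigen-trimming peptidase, had ratios of -1.48 and -0.79, and Pllp of -0.62 and -0.70. Vsir, a checkpoint receptor, had ratios of -0.86 and -0.58. The remaining named lower genes, Trio, Rusc2, Ddx18, Slc48a1 and Aqr, each had 8 to 22 UMIs in WT.

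No gene passed a 2-fold difference in both libraries, in either direction, in the lists of endothelial junctions (18 measured), MHC class II (6), receptors and adaptors for TNF, IL-1 and LPS (12), the unfolded protein response (20) or the cell cycle (8). With 0.474% of all genes higher and 0.0444% lower, lists of this size say little by such a count. Cells with at least 3 UMIs of cell cycle genes numbered 0 in WT and 2 in KI. Hes1, a Notch target, was the only Notch gene past 0.5 in both libraries, with ratios of 0.89 and 0.67. Cd74, the MHC class II invariant chain, was lower, at 272 CPM in WT and 360 CPM in KI against 410 and 534.

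The cells with Neurl3 and the cells with Sox11 alone did not share these differences to the same extent. This split, like the next, was made after the data were seen. Neurl3 carriers (45 cells in WT, 65 in KI) had 81 genes at least 2-fold higher than resting cells in both libraries (1.2%) and 22 lower (0.326%). Sox11 cells without Neurl3 (42 and 99 cells) had 4 higher (0.0592%) and 13 lower (0.192%). Of the 32 genes above, 31 were among the 81 and 3 among the 4. Icam1 stood at 395 CPM in WT and 373 CPM in KI in Sox11 cells without Neurl3, close to the resting 415 and 324. It reached 1658 and 1083 CPM in cells with both genes and 2308 and 1945 in cells with Neurl3 and no Sox11. Neurl3 carriers were above Sox11 cells without Neurl3 by 2.19 (1.84 to 2.56) in WT and 1.94 (1.70 to 2.18) in KI on the log2 scale. Tnfaip3 stood at 102 CPM in WT and 176 CPM in KI in Neurl3 carriers and at 24.7 and 20.8 in Sox11 cells without Neurl3. Most genes of these lists did not follow. In Neurl3 carriers against resting cells, 4 of 18 NF-kB genes and 2 of 11 leukocyte adhesion genes were at least 2-fold higher in both libraries. The list medians were 0.39 in WT and 0.71 in KI for NF-kB, and -0.26 and -0.08 for adhesion. Of 12 receptors and adaptors for TNF, IL-1 and LPS 1 passed, with medians of 0.22 and -0.22. Irf1 was at 109 and 226 CPM in Sox11 cells without Neurl3, against 504 and 483 in cells with both. Direct comparison of Neurl3 carriers with Sox11 cells without Neurl3 gave 62 genes at least 2-fold higher in both libraries (0.917%) and 22 lower (0.326%). The groups also differed in their share of immediate-early and heat-shock RNA, and counts within ranges of that share are given below.

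Heat-shock genes split in the same way. Of 17 measured, 10 were at least 2-fold higher in Neurl3 carriers than in resting cells in both libraries and 0 in Sox11 cells without Neurl3. Hspa1a was at 385 CPM in WT and 1437 CPM in KI in the latter, below and above the resting 681 and 518, and at 10046 and 5134 in cells with Neurl3 and no Sox11. Immediate-early genes were 11 of 23 in Neurl3 carriers and 3 of 23 in Sox11 cells without Neurl3. Of the 32 genes, Ier3, Egr1 and Junb remained at least 2-fold higher without Neurl3. For Ier3, Sox11 cells without Neurl3 had 1471 CPM in WT and 1671 CPM in KI, ratios of 1.44 and 2.09 over resting cells. Socs3 lay between, at 375 and 494 CPM in Sox11 cells without Neurl3, and Sparcl1 was lower in those cells (-1.25 in WT and -1.26 in KI) than in Neurl3 carriers (-0.22 and -0.11). The few cells with Icam5 (4 and 17) had more Icam1 than any of these groups, 4153 and 3023 CPM. Icam1 is the upstream neighbour of Icam5 on the same strand, and the part of that position in the Icam5 counts was not tested.

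**Figure D3:**
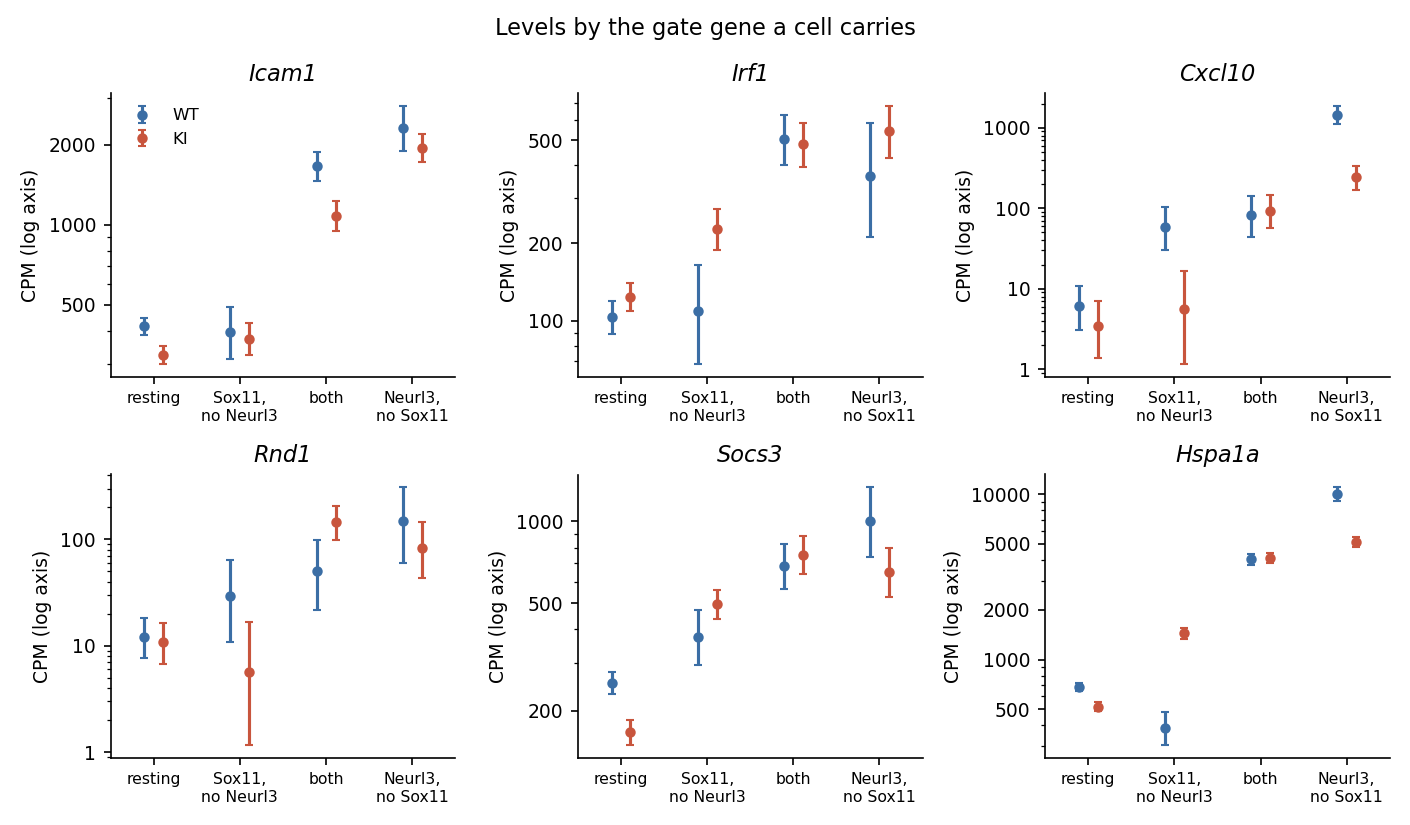
Summed CPM (log axes) of 6 genes in resting cells and in Neurl3/Sox11 cells with Sox11 and no Neurl3, with both, and with Neurl3 and no Sox11, for WT (blue) and KI (red); bars are exact Poisson intervals. Icam1 in cells with Sox11 and no Neurl3 (395 and 373 CPM) is near the resting level, and higher in both groups with Neurl3.

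Icam1 and Irf1 were highest in the cells with the most defining RNA. Only Irf1 in KI rose at every step, while Irf1 in WT and Icam1 in both libraries each had a fall on the way. From 0 to 1, 2, 3 to 4 and 5 or more UMIs of the 3 genes, Icam1 stood at 415, 362, 514, 1004 and 2796 CPM in WT and at 324, 296, 624, 528 and 1618 in KI. Irf1 stood at 103, 126, 116, 265 and 785 CPM in WT and at 124, 150, 316, 322 and 440 in KI. Cells with a single UMI were thus near the resting cells in both genes, and the highest levels were in the 15 and 32 cells with 5 or more. Median depth was 3001, 3490, 3976, 4897 and 4479 UMIs over the same classes in WT and 3353, 4299, 4834, 4769 and 5197 in KI.

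Immediate-early and heat-shock RNA was unevenly spread over the cells. The share of a cell's UMIs in 48 genes of these 2 lists, called its stress share, had a median of 1.05% in WT and 1.62% in KI, against 0.903% and 0.851% in resting cells. The 90th percentile was 9.71% and 7.17% against 1.62% and 1.97%. Of Neurl3/Sox11 cells, 30 of 87 in WT (34.5%, 24.6 to 45.4%) and 75 of 165 in KI (45.5%, 37.7 to 53.4%) lay above the 90th percentile of the resting cells of their library. Among Neurl3 carriers these were 20 of 45 and 40 of 65, and among Sox11 cells without Neurl3 10 of 42 and 34 of 99. Cells with a sum of 1 had 15.7% and 12.7% above that line. Part of the immediate-early and heat-shock RNA can come from tissue digestion, and its part in the differences was not tested.

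Cells were therefore also compared within 2 ranges of stress share, below and above that line. The counts are over all 6758 genes, those of the stress lists included, and the genes named are outside those lists. Below the line, Neurl3/Sox11 cells (57 in WT, 90 in KI) against resting cells (483 and 494) had 5 genes at least 2-fold higher in both libraries (0.074%) and 10 lower (0.148%). Only Cxcl10 of the 32 genes was among the 5, from few UMIs in few cells. Icam1 stood at 470 CPM in WT and 228 CPM in KI, against 337 and 292 in resting cells, so the libraries differed in direction. Irf1 was at 127 and 141 against 89.7 and 111, and Socs3 at 104 and 111 against 150 and 93.7.

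Above the line, Neurl3/Sox11 cells (30 and 75) were compared with resting cells of high stress share (54 and 55). Their stress shares were not matched, with medians of 4.23% in WT and 4.48% in KI against 2.65% and 2.80%, and the part of this gap in the ratios was not tested. Icam1 was at 2324 CPM in WT and 1566 CPM in KI against 1031 and 608, ratios of 1.17 (0.92 to 1.43) and 1.36 (1.09 to 1.65). Irf1 was at 608 and 605 against 210 and 238 (1.53 and 1.34), Sbno2 at 787 and 648 against 391 and 242 (1.01 and 1.41), and Sox4 at 200 and 221 against 68.4 and 71.2 (1.53 and 1.60). Csf1, the macrophage growth factor (1.60 and 1.34), Sdc4, a heparan sulfate syndecan (1.16 and 1.74), Rel, an NF-kB subunit (1.47 and 1.42), and Iigp1, an interferon-inducible GTPase (1.25 and 1.499), were also at least 2-fold higher. In all 56 genes were higher (0.829%) and 58 lower (0.858%), so the counts were balanced and many single genes of these small classes rest on few UMIs. Rnd1 had ratios of 0.69 and 1.45, and Socs3 stood at 1459 and 1187 against 1060 and 803. By the gene carried, Neurl3 carriers above the line (20 and 40 cells) had 88 genes higher (1.3%) and 93 lower (1.38%). Sox11 cells without Neurl3 above it (10 and 34) had 79 higher (1.17%) and 121 lower (1.79%). Below the line Neurl3 carriers had 34 higher (0.503%) and 51 lower (0.755%). Sox11 cells without Neurl3 had 5 (0.074%) and 20 (0.296%) there. Above the line few cells were summed and lower genes outnumbered higher ones in both groups, so these counts cannot size the gap. There the NF-kB list had medians of 0.94 in WT and 0.89 in KI in Neurl3 carriers. In Sox11 cells without Neurl3 its medians were 0.33 and 0.26. For receptors and adaptors for TNF, IL-1 and LPS the medians were 0.36 and -0.39, and 0.20 and 0.02, in the same order.

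**Figure D4:**
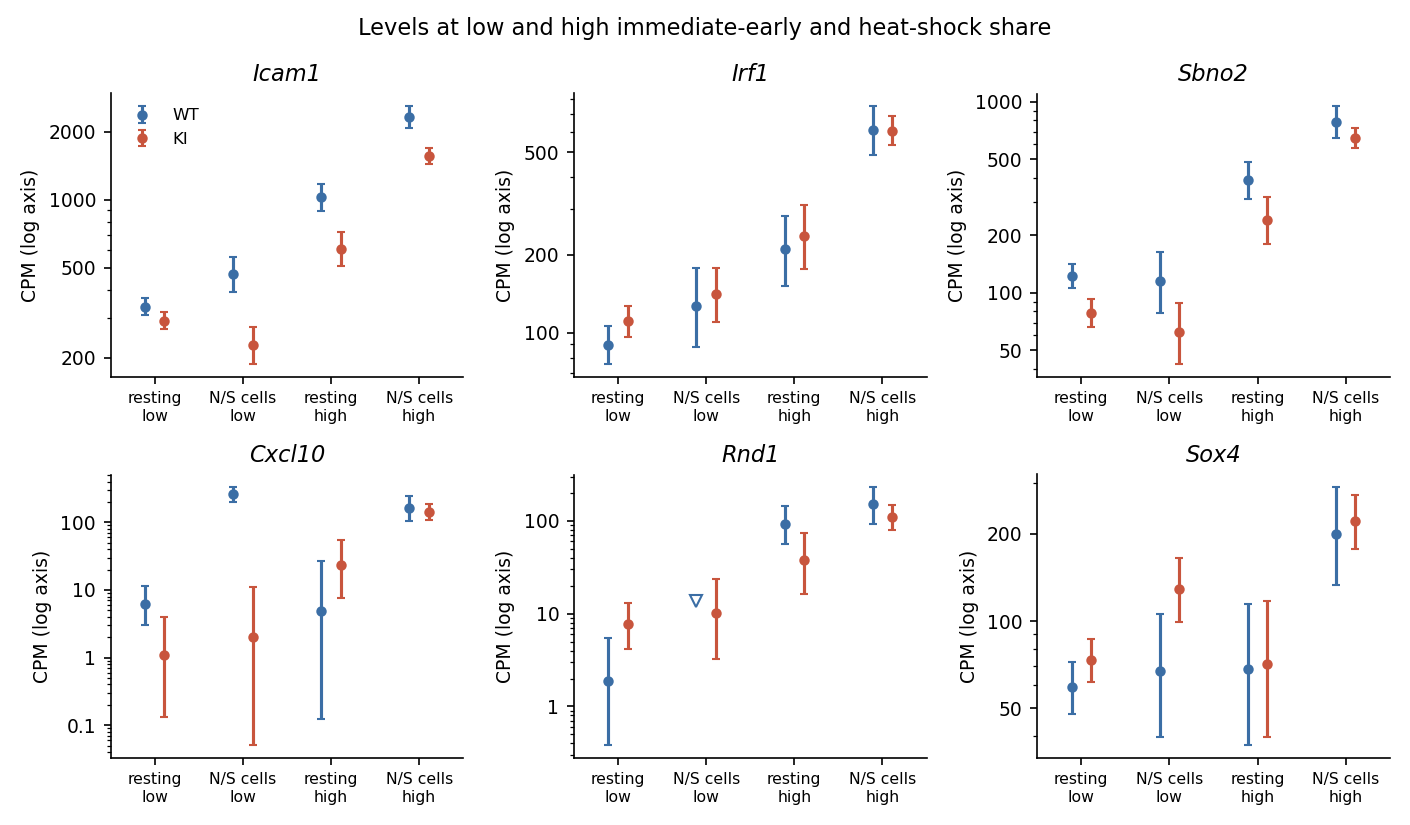
Summed CPM (log axes) of 6 genes outside the stress lists in resting and Neurl3/Sox11 (N/S) cells with a stress share below or above the 90th percentile of resting cells, for WT (blue) and KI (red); bars are exact Poisson intervals and the open triangle is the upper limit of 0 UMIs. For Icam1, Irf1 and Sox4 the N/S cells with a high share lie highest, and below the line the classes are close.

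Inhbb and Adamts9 mark another group of capillary cells, here called activated, which had at least 2 UMIs of those genes and at most 1 of Neurl3, Sox11 and Icam5 together (450 cells in WT, 247 in KI). Against them, 24 genes were at least 2-fold higher in Neurl3/Sox11 cells in both libraries (0.355%) and 4 lower (0.0592%). The genes were those measured over Neurl3/Sox11 and resting cells, a filter without activated cells, which favours higher ratios. The higher genes were led by heat-shock genes, Hspa1a (2.13 and 2.16), Hspa1b (2.12 and 1.92) and Hsph1 (1.76 and 1.74), followed by Atf3 (1.70 and 2.58), Nuak2, a stress-responsive kinase (1.65 and 1.96), and Phlda1 (1.60 and 1.66). Nuak2 had 15 UMIs in WT. At 15.5 and 13.8 CPM in resting cells, it was measured only because of the Neurl3/Sox11 cells. The proposed markers outside the gates were above the resting level in activated cells too, though below Neurl3/Sox11 cells. Rnd1 stood at 26.1 CPM in WT and 27.1 CPM in KI in activated cells, Socs3 at 418 and 327, and Ier3 at 1028 and 609. These markers were thus not particular to Neurl3/Sox11 cells. Above the resting 90th percentile of stress share were 14.9% of activated cells in WT and 13.8% in KI. Lower named genes were Eif4ebp1, the repressor of cap-dependent translation (-0.85 and -0.88), Atp13a3, a polyamine transporter (-1.13 and -0.78), Sema6b (-0.78 and -1.06), Avl9, Rell1 and Vsir. A single UMI of Sox11 was present in 9.56% of activated cells in WT and 19.4% in KI, and of Neurl3 in 11.8% and 4.45%, shares that the cap of 1 UMI limits.

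Between the genotypes, the proposed markers that no gate used had log2 ratios of KI over WT near 0: 0.05 for Rnd1, 0.04 for Socs3 and 0.12 for Ier3. Other genes that were higher than in resting cells differed more between the libraries. Egr1 had a ratio of 0.70 (0.49 to 0.92), Hspb1 of -0.56 (-0.69 to -0.43), Gadd45b of -0.71 (-1.10 to -0.32), Icam1 of -0.43 and Cxcl10 of -1.80, the last from few cells. Over all 6758 genes, 1130 had a ratio above 0.5 (16.7%) and 809 one below -0.5 (12%), with a median of 0.01. Under another scaling, the median of the ratios, the split was 1443 and 572. In resting cells 620 (9.17%) and 364 (5.39%) passed. After thinning of the resting sums to the totals of the Neurl3/Sox11 cells these were 998 (14.8%) and 755 (11.2%). The thinned resting counts were thus nearer to those of the Neurl3/Sox11 cells.

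Genes higher in KI included Tril, a Toll-like receptor accessory protein, with 2 UMIs in WT (4.9 CPM) and 63.0 CPM in KI. Its ratio was 3.37 (1.76 to 6.76), against 0.92 in resting cells. Pcdh1, a protocadherin, stood at 103 CPM in WT and 376 CPM in KI, a ratio of 1.85 (1.40 to 2.37) against 0.96. Pgm2l1, a sugar phosphate enzyme, stood at 29.4 and 134 (2.13 against 0.87). Fosb, an AP-1 subunit, stood at 58.8 and 270 CPM, a ratio of 2.17 in these cells and -0.61 in resting cells, opposite in sign. Within Neurl3/Sox11 cells of low and of high stress share the Fosb ratio was 1.73 and 1.86. The remaining named genes, Hmgn2, Klf10, Cbfb and Rfc1, had 6 to 8 UMIs in WT.

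Of 22 measured type I interferon genes, 10 had a ratio of KI over WT above 0.5 and 0 below -0.5, with a median of 0.45. In resting cells the counts were also 10 and 0, with a median of 0.41. Oasl2 stood at 41.7 CPM in WT and 151 CPM in KI (1.82, against 1.497 in resting cells). Isg15, a ubiquitin-like modifier, stood at 36.8 and 170 (2.17 against 1.06), and 36.4% of its KI UMIs came from 1 cell. Genes of the unfolded protein response were lower in KI in 7 of 20 and higher in 1, against 6 and 0 in resting cells. Hspa5, the BiP chaperone, stood at 723 CPM in WT and 414 CPM in KI (-0.81 against -1.09), and Pdia6, a disulfide isomerase, at 363 and 138 (-1.39 against -0.50). Of 12 receptors and adaptors for TNF, IL-1 and LPS, 6 were lower in KI and 1 higher, against 2 and 0 in resting cells. Over all genes, 12% were lower and 16.7% higher in Neurl3/Sox11 cells, against 5.39% and 9.17% in resting cells. Resting sums are deeper, and thinned to the same totals they gave 11.2% and 14.8%. The lists were not counted after thinning, so their counts in the classes are not like for like. Irak2, a kinase of Toll-like receptor signalling, stood at 95.6 and 30.4 CPM (-1.65 against -0.59). Cd40 stood at 51.5 and 21.4 and Myd88 at 49.0 and 23.6, each from about 20 UMIs per library.

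Cyp26b1, which degrades retinoic acid, was the named gene with the lowest ratio, at 125 CPM in WT and 24.7 CPM in KI. Its ratio was -2.32 (-3.13 to -1.59), and -3.53 in resting cells. It was also lower in KI at low and at high stress share (-2.55 and -1.74). Nckap5 stood at 240 and 72.0 CPM (-1.73 against -1.43), Odc1, the first enzyme of polyamine synthesis, at 132 and 48.4 (-1.45 against -1.56), and Relb, an NF-kB subunit, at 71.1 and 25.9 (-1.45 against -1.06). The Odc1 ratio was -0.13 in Neurl3 carriers and -2.72 in Sox11 cells without Neurl3. Olfr920, Nol11, Cfap43, Gnl3 and Hlx had ratios of -1.92, -1.57, -1.501, -1.45 and -1.41. In resting cells those of Nol11 and Hlx were 0.29 and 0.42.

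**Figure D5:**
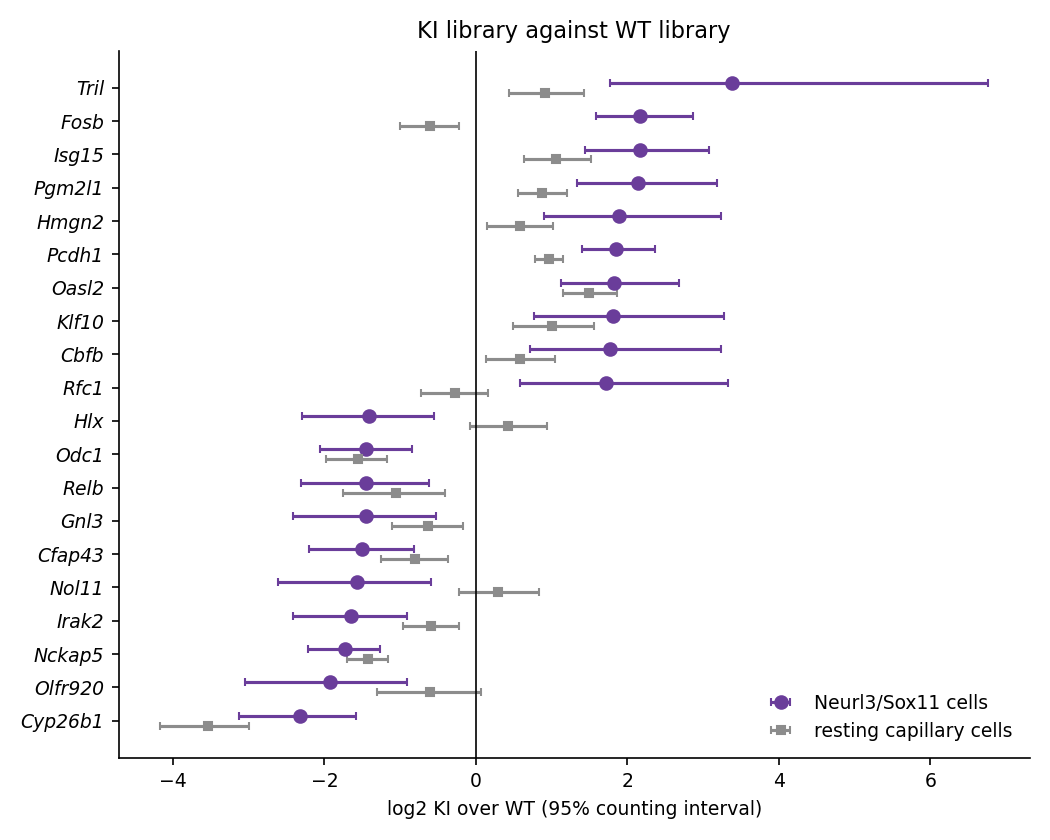
Log2 ratio of KI over WT (x) for the 20 named genes, in Neurl3/Sox11 cells and in resting cells, with intervals for counting error. Cyp26b1, Nckap5, Odc1 and Oasl2 lie on the same side of 0 in both classes, and Fosb, Rfc1, Nol11 and Hlx on opposite sides.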

How the data were processed

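The authors deposited raw UMI counts per gene and barcode for 2 libraries, 1 WT and 1 KI. Cell Ranger 2.0, Seurat 2.3.4, R 3.5.3 and mm10 are named in the submitters' processing notes without a role, and the matrix was written by software version 3.0.2, per the file headers. How empty barcodes were removed is not given in the sources used here.

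Counts were summed per library and class, leaving gate genes out of gene counts, and intervals were exact (Clopper-Pearson, Poisson, conditional binomial). Python 3.11.15, numpy 2.4.6, scipy 1.17.1, pandas 2.3.3 and matplotlib 3.10.9 were used, and the sums and ratios were tested on simulated data. Gene positions came from GENCODE M21, in which 30934 of 31053 gene IDs were found. Named genes were the 15 highest and 12 lowest against resting cells and the 6 highest and 6 lowest against activated cells (by the library nearer to 0), and the 10 highest and 10 lowest for KI over WT. They needed a level of 50 CPM, with detection in 10% or more of the cells, in a class compared, and left out gate, mitochondrial, ribosomal, haemoglobin, sex-linked and unnamed genes and those over 20 times lower than in fibroblast, epithelial or leukocyte barcodes. The cells, the 27 gene lists and the rules were chosen with earlier results of these data known, and 1 of the lists is not reported here. Alternatives changed the gate, filters, depth weighting, denominator, scaling and threshold; those on stress share, on the gene carried, on the richest cell, on the 0.5 threshold and on thinned resting sums were chosen after the data were seen. Other genes were named for their lists or for the defining genes.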

Additional observations from a re-analysis of the deposited data

Results flagged for a closer look

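Hlx, a homeobox gene, and Nol11, a nucleolar protein gene, differed from resting cells in opposite directions in the libraries. The log2 ratio of Neurl3/Sox11 over resting cells was 1.14 in WT and -0.70 in KI for Hlx, from 27 and 22 UMIs. For Nol11 it was 0.85 in WT and -1.02 in KI, from 22 and 16 UMIs. The difference between the libraries was not tested, since each genotype has 1 library.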

How the results depend on the processing

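No paired analysis was possible because each genotype has 1 library. The limits are 1 library per genotype, no doublet caller, a gate that deeper cells pass more readily, and sums of few cells. The share of Neurl3/Sox11 cells in WT and KI was 5.95% and 10.2% with a gate of 3 UMIs, 3.52% and 4.66% with at least 2 UMIs of Neurl3, and 7.17% and 13.1% with at least 2 of Sox11. It was 6.09% and 7.39% for Neurl3 carriers, 5.68% and 11.3% for Sox11 cells without Neurl3, 5.06% and 8.16% after thinning to 2000 UMIs, 1.03% and 2.304% of all kept barcodes, and 1.67% and 3.68% of endothelial barcodes. KI was above WT in each. The log2 ratio of the shares was 0.28 for Neurl3 carriers, 1.16 of kept barcodes and 1.14 of endothelial barcodes.

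The count of genes higher than in resting cells (32) became 62 with 3 UMIs, 112 with 2 of Neurl3, 11 with 2 of Sox11, 5 at low and 56 at high stress share, 81 for Neurl3 carriers, 4 for Sox11 cells without Neurl3, 240 without the CPM filter and 121 at a threshold of 0.5. The count lower (3) became, in the same order, 14, 51, 7, 10, 58, 22, 13, 36 and 68. It was 9 with at most 5% mitochondrial UMIs, 6 with means of per-cell CPM, 15 without the richest cell of each gene and 0 at 50 CPM. For KI over WT, the higher count (1130) became 447 at 50 CPM and 2168 without the filter. The lower count (809) became 1711 with 2 of Neurl3, 1413 at high stress share, 1358 for Neurl3 carriers, 338 at 50 CPM and 2160 without the filter. The cause of these shifts was not tested, beyond the number of genes or cells each choice leaves.

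Of the values for single genes, 878 stayed within the counting interval of the main value, 282 left it and 30 were counted as changing sign. A change of sign was counted only where the main log2 ratio was at least 1 in size, or 0.5 for KI over WT. Smaller ratios that changed sign, as those of most named lower genes could, are among the others. At low stress share the log2 ratio over resting cells changed sign in WT for Atf3 (-0.91), Egr1 (-0.17), Hsph1 (-0.19), Ier3 (-0.43), Junb (-0.098), Rnd1 (-0.23) and Socs3 (-0.50). In KI it did so for Gadd45b (-0.42), Hspa1b (-0.14), Hspb1 (-0.68), Hsph1 (-0.31), Icam1 (-0.35), Rsad2 (-0.14) and Zfp36 (-0.074). Low stress share is defined by the genes of the stress lists, Atf3, Egr1, Ier3, Junb, Zfp36 and the heat-shock genes among them. The split limits the levels of these genes in both classes, and its part in their change of sign was not tested. Rnd1, Socs3 and Icam1 are outside those lists. In Sox11 cells without Neurl3 it changed sign in WT for Gadd45b (-0.90), Hspa1a (-0.81), Hspa1b (-1.18), Hspb1 (-0.85), Hsph1 (-0.33), Icam1 (-0.064), Phlda1 (-0.99) and Tnfaip3 (-0.095), and in KI for Marcksl1 (-0.24), Rnd1 (-0.74) and Rsad2 (-0.29). With at least 2 UMIs of Sox11 it did so for Hspa1b (-0.12) and Hspb1 (-0.10) in WT and Rsad2 (-0.080) in KI, and without the richest cell for Rsad2 in KI (-0.15). The KI over WT ratio of Nol11 was 0.49 with at least 2 UMIs of Neurl3. The cause was not tested.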

Other observations

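Metallothionein genes, which bind zinc and are induced by glucocorticoids and metals, were lower in Neurl3/Sox11 cells of low stress share than in resting cells of low stress share. Mt1 stood at 93.2 CPM in WT and 74.7 CPM in KI against 389 and 310, log2 ratios of -2.03 and -2.04. Mt2 stood at 26.1 and 18.2 CPM against 85.3 and 102, from 7 and 9 UMIs. Lrg1, a secreted glycoprotein of inflamed vessels, stood at 22.4 and 20.2 CPM against 54.2 and 50.4, from 6 and 10 UMIs. Over all Neurl3/Sox11 cells Mt1 was at 203 and 198 CPM against 425 and 304, and in KI 67.0% of its UMIs came from 1 cell.

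With gate genes left out, 25.0% of the 15 nearest neighbours of a Neurl3/Sox11 cell in WT and 35.0% in KI were themselves Neurl3/Sox11 cells, against 15.1% and 19.1% of the neighbours of other capillary cells. With immediate-early and heat-shock genes also left out the shares were 22.8% and 32.8% against 15.5% and 19.4%. Neurl3/Sox11 cells were deeper than those others, with medians of 4352 and 4873 UMIs against 3206 and 3663, and the part of depth in these shares was not tested.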
